A study of Mus musculus with 45 samples.

Results

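Cholesterol in the brain and retina is made, sensed, moved between cells and removed by a well-defined set of genes. Their RNA levels were measured in 3 tissues, cortex, hippocampus and retina, after mice had received tamoxifen or its vehicle. The set held 34 genes chosen by name: 16 enzymes of synthesis, 7 genes of sterol sensing, 6 of uptake and movement, and 5 of export, storage and turnover. Each of the 34 had exactly 1 row among the 36172 genes listed in each tissue's table, and all 34 passed the filter on low counts in each of the 3 tissues, so none was left out.

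The mice were 3 months old, male or female, and received either tamoxifen, an oestrogen receptor modulator used to activate inducible Cre recombinase, or sunflower oil as vehicle. The labels name no genotype, strain, Cre line, dose or interval between treatment and tissue collection. Tamoxifen females gave 4 libraries of each tissue and vehicle females 3. Tamoxifen males gave 3 of cortex, 4 of hippocampus and 4 of retina, and vehicle males 4, 3 and 4. Each library is named here by the number in its title (951 to 966), which recurs across tissues and is taken to be the animal.

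Cholesterol does not cross the blood-brain barrier in appreciable amounts, so the brain makes its own. The mevalonate branch builds isoprenoid units from acetyl-CoA, and the sterol branch joins them into squalene, oxidises and cyclises squalene to lanosterol, and trims lanosterol towards cholesterol. When membrane sterol is low, the escort protein Scap carries the transcription factors encoded by Srebf1 and Srebf2 to the Golgi for cleavage, and the cleaved factors raise transcription of the synthesis and uptake genes. Insig1 and Insig2 encode membrane proteins that hold Scap back when sterol is plentiful, and Insig1 is itself a target of the pathway. Liver X receptors, encoded by Nr1h2 and Nr1h3, respond to oxysterols and raise the exporters Abca1 and Abcg1.

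Total counts ran from 10259768 to 22375163 in cortex, from 31154309 to 44153244 in hippocampus and from 9143811 to 18253874 in retina. Defining markers of hippocampus and retina matched the labels. Fibcd1, a marker of hippocampal pyramidal cells, lay between 185 and 275 CPM (the count scaled to its library's total) in the hippocampus and at most 22.3 CPM in the cortex, and Gnat1, the rod transducin, was at least 10500 CPM in the retina and at most 19.7 CPM elsewhere. Several libraries stood apart in transcripts of neighbouring tissue. Ttr, abundant in choroid plexus, exceeded 5 times the tissue's median in cortex 958, 960 and 965 and hippocampus 951, 958 and 962. Cryaa of the lens did so, and also exceeded a minimum of 5 CPM, in retina 951, 959 and 962. Retina 960 was above 5 times the Cryaa median too, but at 2.72 CPM lay under that minimum. Rpe65 of the pigment epithelium exceeded 3 times the median in retina 960 and 961.

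The first comparison asked whether tamoxifen changed the RNA of the pathway. In the cortex 1 gene rose and none fell: Insig1, the sterol-sensing retention protein, was 1.18-fold higher with tamoxifen (log2 fold change 0.24 ± 0.05 SE, adjusted p = 0.019 by edgeR's quasi-likelihood test, sexes averaged). In the same cortex comparison 0.198% of 14680 genes rose and 0.409% fell. The other 33 genes did not pass in the cortex, and none of the 34 passed in the hippocampus or retina. In the hippocampus 0.013% of 15339 genes rose and 0.0522% fell, and in the retina 0.0135% of 14781 rose and 0.0338% fell, so calls of any kind were rare there. DESeq2 also called 0 of the 34 in the hippocampus and retina, and its counts over all genes are given at the end.

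**Figure D1:**
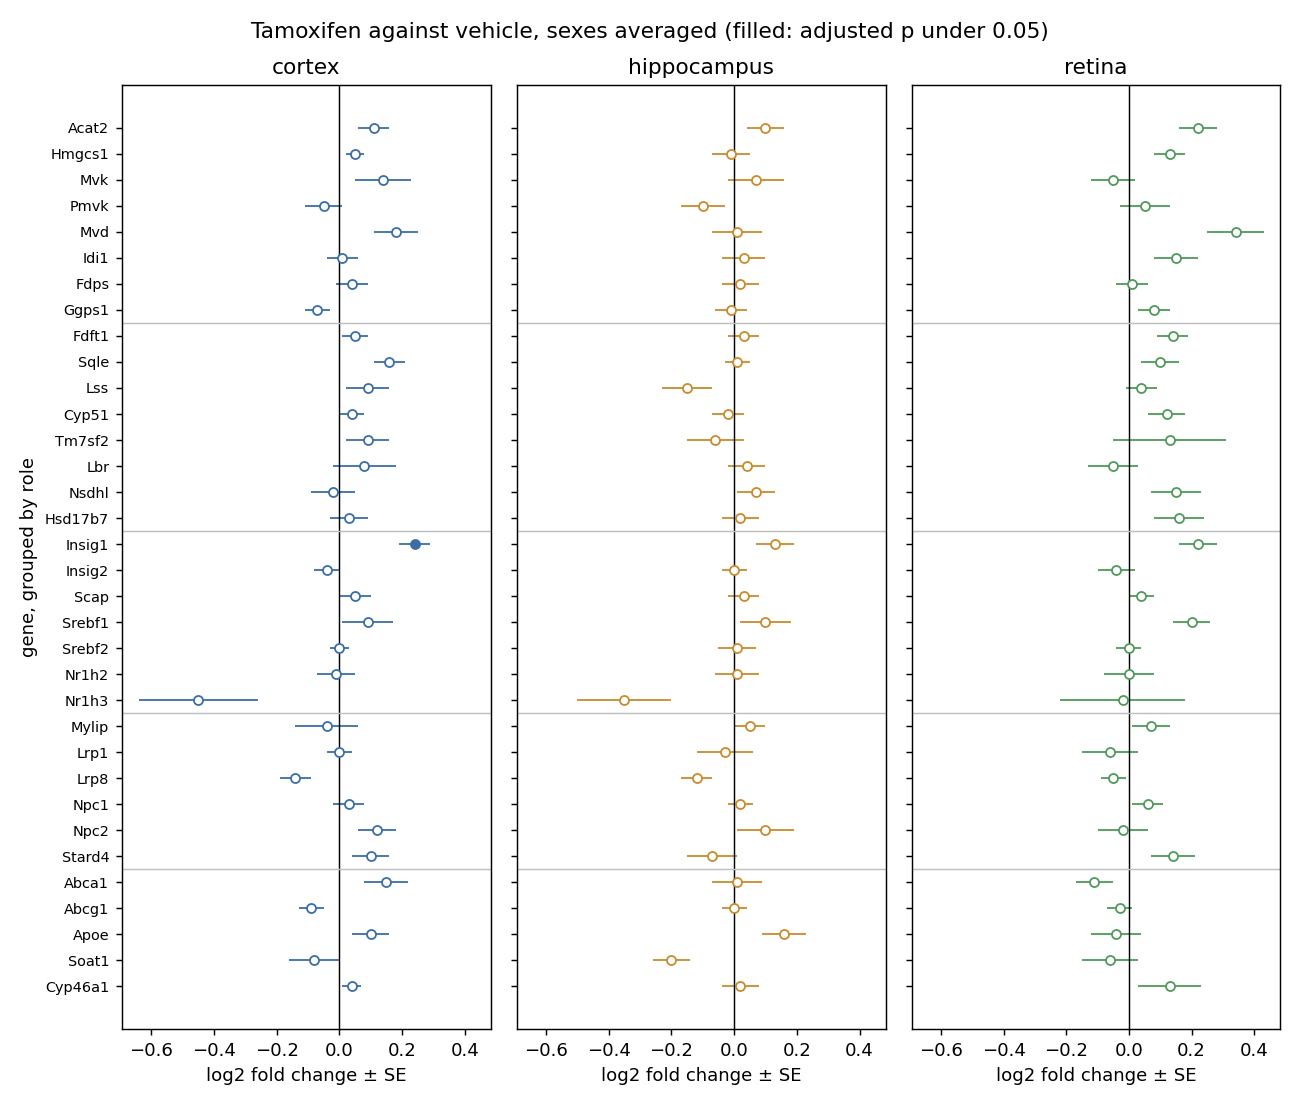
Log2 fold change of tamoxifen against vehicle, sexes averaged, for each of the 34 genes in 3 tissues, with bars of 1 SE and lines between the roles. Filled points passed an adjusted p of 0.05; the single filled point is Insig1 in the cortex at 0.24, and most synthesis enzymes of the retina lie to the right of 0.

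Insig1 (chr5:28071412-28078662, plus strand, GRCm38) was measured in the cortex at 106, 113 and 94.1 CPM in the 3 female vehicle libraries and at 115, 130, 117 and 125 CPM in the 4 female tamoxifen libraries. The male vehicle libraries of the cortex held 112, 100, 103 and 102 CPM, and the male tamoxifen libraries 128, 116 and 128 CPM. The groups did not overlap: each of the 7 tamoxifen libraries lay above every vehicle library of its sex, and the lowest of them, at 115 CPM, lay above the highest vehicle library at 113 CPM. Insig1 is shown because it was called on these values, so this separation is no further support. The effect was 0.23 ± 0.07 in females and 0.25 ± 0.06 in males, and the difference between the sexes was 0.02 ± 0.09 (adjusted p = 0.994 by edgeR).

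The call on Insig1 rested on several libraries. It was lost without the 3 Ttr-rich cortex libraries (log2 fold change 0.22, adjusted p = 0.0982 by edgeR) and without any 1 of animals 952, 954, 958 or 961 (adjusted p = 0.0587, 0.0542, 0.0828 and 0.0541), while the fold change stayed between 0.20 and 0.26 in every fit that left out 1 library. The sum of 9 rod genes in the cortex ranged from 17.8 to 79.2 CPM in female tamoxifen and from 11.4 to 32.5 CPM in female vehicle libraries, which overlapped. In males it ranged from 10.8 to 13.6 CPM with tamoxifen and from 19.7 to 56.7 CPM with vehicle, in the other direction. With the rod transcript level as a covariate the effect on Insig1 was 0.23 and passed the threshold. The part of rod transcripts in this call was not tested further.

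Hippocampal Insig1 lay at 76.4, 71.2 and 64.4 CPM in female vehicle and 71.5, 79.9, 69.0 and 82.4 CPM in female tamoxifen libraries. In males it was 84.9, 67.4 and 75.8 CPM with vehicle and 89.7, 84.4, 81.6 and 85.0 CPM with tamoxifen. The groups overlapped, with 4 of 8 tamoxifen libraries above every vehicle library of their sex, and the difference of 0.13 ± 0.06 did not pass (adjusted p = 0.624 by edgeR). Retinal Insig1 was 115, 134 and 108 CPM in female vehicle and 152, 138, 127 and 139 CPM in female tamoxifen libraries. The male retina held 127, 119, 125 and 104 CPM with vehicle and 142, 126, 154 and 132 CPM with tamoxifen. Here 6 of 8 tamoxifen libraries lay above the vehicle libraries of their sex, and the difference of 0.22 ± 0.06 did not pass over all genes (adjusted p = 0.282 by edgeR).

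The promoters of 4 genes are shown: Insig1, because it was called in the cortex, Mvd and Acat2, because they had the smallest p of the set in the retina without being called, and Hmgcs1, which makes the precursor of mevalonate, because its window alone held a match to the sterol element. Each is the 250 bases before the RefSeq start site on GRCm38.p6, written 5′ to 3′ on the gene's strand. Capitals mark matches to the sterol regulatory element consensus TCACNCCAC or to the CCAAT box, searched on both strands, so that a CCAAT box on the opposite strand reads ATTGG.
Insig1, chr5:28071162-28071411, plus strand: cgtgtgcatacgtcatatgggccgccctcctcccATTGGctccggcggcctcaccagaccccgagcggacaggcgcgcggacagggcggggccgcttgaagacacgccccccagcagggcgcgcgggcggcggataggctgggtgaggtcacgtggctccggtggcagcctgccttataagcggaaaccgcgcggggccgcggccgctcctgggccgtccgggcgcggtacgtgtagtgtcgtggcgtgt
Mvd, chr8:122443423-122443672, minus strand: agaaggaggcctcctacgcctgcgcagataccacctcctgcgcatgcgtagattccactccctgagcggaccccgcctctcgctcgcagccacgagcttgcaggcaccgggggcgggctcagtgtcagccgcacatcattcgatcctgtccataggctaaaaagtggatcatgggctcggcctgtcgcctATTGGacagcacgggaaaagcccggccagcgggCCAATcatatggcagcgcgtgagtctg
Acat2, chr17:12960726-12960975, minus strand: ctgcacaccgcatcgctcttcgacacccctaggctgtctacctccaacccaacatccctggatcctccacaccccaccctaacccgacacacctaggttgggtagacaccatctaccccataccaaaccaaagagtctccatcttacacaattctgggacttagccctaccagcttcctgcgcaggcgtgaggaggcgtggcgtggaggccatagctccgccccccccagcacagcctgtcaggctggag
Hmgcs1, chr13:119690101-119690350, plus strand: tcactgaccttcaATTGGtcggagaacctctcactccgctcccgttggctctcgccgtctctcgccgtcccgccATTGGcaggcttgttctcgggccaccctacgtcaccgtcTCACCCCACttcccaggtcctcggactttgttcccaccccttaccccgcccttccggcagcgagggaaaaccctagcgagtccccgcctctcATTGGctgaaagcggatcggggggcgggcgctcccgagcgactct

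The Hmgcs1 window held 1 match to the sterol element, which began 137 bases before the start site, and 3 CCAAT boxes, which began 237, 176 and 45 bases before it. Insig1 held 1 CCAAT box, beginning 216 bases before the start site, Mvd held 2, beginning 60 and 27 bases before it, and Acat2 held neither motif. Of the 34 genes, 28 had a window in the RefSeq table. The 9-letter sterol element matched in 1 of these 28, against 1.22% of 27025 genes, and the CCAAT box in 20 of 28 (71.4%), against 37.49% of genes. Among the synthesis enzymes, 12 of 13 with a window held a CCAAT box, all but Acat2. The E-box CACGTG was found in 4 of 28 (14.3%), against 6.86% of genes. A gene with several start sites was counted once if any of its windows matched, and a match describes letters, not occupancy by a factor.

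Within the mevalonate branch, no gene passed for tamoxifen in any tissue. In the retina 7 of the 8 enzymes had positive fold changes, with a median of 0.11, a range from -0.05 to 0.34 and 4 of 8 at an unadjusted p under 0.05. Over all genes tested there, 51.3% were positive and 7.14% had such a p. The largest was Mvd, which decarboxylates mevalonate diphosphate to isopentenyl diphosphate. Mvd lay at 14.0, 15.9 and 13.9 CPM in female vehicle and at 18.2, 21.3, 18.2 and 19.3 CPM in female tamoxifen retina. In males it was 15.8, 17.2, 16.6 and 16.2 CPM with vehicle and 22.2, 14.6, 19.6 and 23.5 CPM with tamoxifen. Thus 7 of 8 tamoxifen retinas lay above every vehicle retina of their sex, while male 960, at 14.6 CPM, lay below them.

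The retinal difference in Mvd was 0.34 ± 0.09 (adjusted p = 0.238 by edgeR). Animal 960 was also 1 of the 2 retinas rich in Rpe65, at 58.2 CPM beside 48.1 CPM in animal 961 and at most 16.2 CPM in the other 13. Without both, Mvd passed (0.44, adjusted p = 0.0404), and without 960 alone it also passed (0.40, adjusted p = 0.0326), choices made after the values were seen. Without the 3 Cryaa-rich retinas it was 0.25 (adjusted p = 0.691). In the cortex Mvd was 0.18 ± 0.07 and in the hippocampus 0.01 ± 0.08, neither past the threshold.

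Acat2, which joins acetyl-CoA units at the start of the pathway, was 25.6, 24.6 and 24.7 CPM in female vehicle retina and 29.9, 29.0, 25.8 and 26.7 CPM with tamoxifen. Male retinas held 24.4, 24.7, 25 and 25.7 CPM with vehicle and 32.1, 27.2, 32.4 and 28.9 CPM with tamoxifen. All 8 tamoxifen retinas lay above every vehicle retina of their sex, yet the difference of 0.22 ± 0.06 did not pass over all genes (adjusted p = 0.245 by edgeR). Acat2 is shown for its small p, so this separation is no further support. In the cortex the 8 mevalonate enzymes ranged from -0.07 to 0.18 and in the hippocampus from -0.10 to 0.10.

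**Figure D2:**
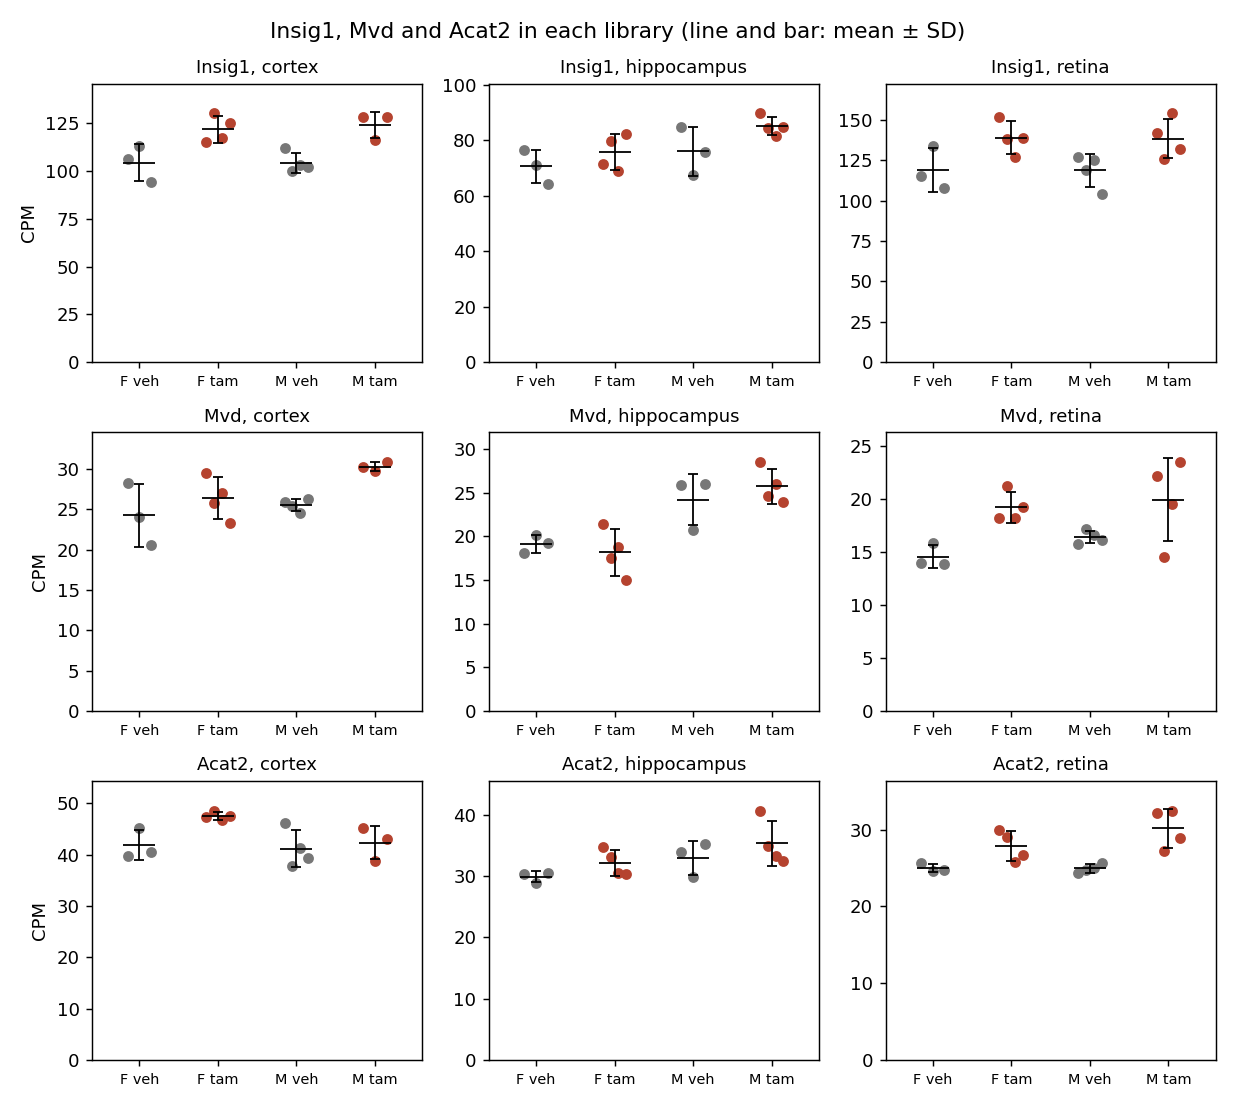
CPM of Insig1, Mvd and Acat2 in every library, by sex (F, M) and treatment (veh in grey, tam in red), with the group mean and SD as line and bar. The tamoxifen cortex libraries of Insig1 lie at 115 to 130 CPM, above all vehicle ones, while the hippocampal groups overlap.

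The sterol branch, from Fdft1 (squalene synthase) to Hsd17b7 and Nsdhl (which work on the demethylated sterol), likewise had no gene past the threshold. Its 8 fold changes ranged from -0.02 to 0.16 in cortex, from -0.15 to 0.07 in hippocampus and from -0.05 to 0.16 in retina. The smallest p of the branch in the cortex belonged to Sqle, squalene epoxidase, a rate-limiting step of sterol synthesis. Sqle was 98.3, 88.7 and 78.0 CPM in female vehicle and 105, 97.5, 100 and 93.0 CPM in female tamoxifen cortex. Males held 91.9, 77.6, 86.2 and 88.3 CPM with vehicle and 99.4, 93.3 and 95.2 CPM with tamoxifen, so the males did not overlap and the females did (0.16 ± 0.05, adjusted p = 0.257 by edgeR).

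Among the sensing genes, Insig1 alone passed, in the cortex. Its paralogue Insig2 was at -0.04 in cortex, 0.00 in hippocampus and -0.04 in retina. Nr1h3, liver X receptor alpha, was low throughout, at 1.59 to 3.73 CPM in the cortex, and its difference of -0.45 ± 0.19 there did not pass (adjusted p = 0.456 by edgeR). Hippocampal Nr1h3 was 3.74, 1.99 and 2.98 CPM in female vehicle and 2.49, 2.58, 1.99 and 1.90 CPM in female tamoxifen libraries, and 2.61, 2.91 and 2.22 CPM against 2.30, 1.77, 1.80 and 2.39 CPM in males. The groups overlapped (-0.35 ± 0.15, adjusted p = 0.590). Srebf1 was at 0.20 ± 0.06 in the retina (adjusted p = 0.392) and Srebf2 at 0.00 in the cortex and retina and 0.01 in the hippocampus.

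In the cortex and hippocampus the negative values with the smallest p came from a receptor and a storage enzyme. Lrp8, the apolipoprotein E and reelin receptor of neurons, was 77.4, 82.5 and 92.2 CPM in female vehicle cortex and 78.5, 78.4, 73.0 and 76.5 CPM with tamoxifen. Male cortex held 80.7, 93.9, 82.5 and 74.4 CPM with vehicle and 75.3, 75.8 and 73.9 CPM with tamoxifen. The groups overlapped in both sexes, and the difference of -0.14 ± 0.05 did not pass (adjusted p = 0.373 by edgeR). Hippocampal Lrp8 was 105, 116 and 113 CPM in female vehicle and 99.4, 97.7, 98.1 and 113 CPM in female tamoxifen libraries, and 95.2, 104 and 93.6 CPM against 84.5, 94.3, 93.5 and 89.0 CPM in males. There 6 of 8 tamoxifen libraries lay below every vehicle library of their sex (-0.12 ± 0.05, adjusted p = 0.558). Soat1, which esterifies cholesterol for storage, was 33.2, 34.1 and 32.9 CPM in female vehicle hippocampus and 31.0, 25.4, 29.4 and 31.5 CPM with tamoxifen. In male hippocampus it was 32.8, 31.0 and 33.4 CPM with vehicle and 24.4, 30.4, 27.8 and 29.1 CPM with tamoxifen. All 8 tamoxifen libraries lay below every vehicle library of their sex, and the difference of -0.20 ± 0.06 did not pass over all genes (adjusted p = 0.363 by edgeR). Soat1 too is shown for its small p, so this separation is no further support.

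Read over the whole set, 23 of 34 fold changes (67.6%) were positive in each of the 3 tissues, beside 52.7%, 51.6% and 51.3% of all genes, with medians of 0.04, 0.01 and 0.06 in the cortex, hippocampus and retina, beside medians of 0.01, 0.00 and 0.00 over all genes tested. At an unadjusted p under 0.05 there were 6, 4 and 8 of 34 (17.6%, 11.8% and 23.5%), beside 9.39%, 7.84% and 7.14% of all genes. Among 39 further genes of sterol and fatty acid metabolism outside the set, 1 rose and 1 fell in the cortex and none passed in the hippocampus or retina. The gene that fell was Elovl6, a fatty acid elongase controlled by the same transcription factors (-0.20 ± 0.04, adjusted p = 0.0272 by edgeR). It lay between 79.2 and 87.7 CPM in female tamoxifen cortex and between 90.8 and 105 CPM with vehicle. In males it lay between 80.8 and 90.1 CPM with tamoxifen and between 91.8 and 97.8 CPM with vehicle. The groups did not overlap in either sex, but Elovl6 is named because it passed, so this separation is no further support.

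No gene of the set passed for tamoxifen within females, within males, or for the difference between the sexes, in any tissue. All genes called within females came to 0.375% in cortex, 0.013% in hippocampus and 0.0406% in retina. Within males they came to 0.0272% in the cortex and 0.0% in the other tissues, and 0.0% of genes were called for the difference in each tissue. At an unadjusted p under 0.05 there were 5, 3 and 4 of 34 in females, 6, 2 and 9 in males, and 3, 2 and 0 for the difference, in the order cortex, hippocampus, retina. Over all genes tested the shares with such a p were 8.5%, 5.5% and 6.37% in females, 6.82%, 5.73% and 3.99% in males, and 5.5%, 3.02% and 3.37% for the difference. DESeq2 called 0 of 34 in each. The shares of all genes that DESeq2 called in these comparisons are not given here, so its counts are not a result about the set. In a joint fit, 0.0126% of 15900 genes had a tamoxifen effect that differed between tissues, and none of the 34 did. The smallest p among them was that of Mvd (unadjusted p = 0.0227, adjusted p = 0.84), so the presence of a call on Insig1 in the cortex and its absence elsewhere was not shown to be a difference between tissues.

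The second comparison was between males and females, averaged over treatment. In the hippocampus 8 of the 34 genes were higher and 2 lower in males, where 10.6% of 15339 genes were higher and 7.12% lower. In the cortex and retina none of the 34 passed, with 0.0817% and 0.149% of all genes called. There 3 and 5 of the 34 had an unadjusted p under 0.05, beside 8.6% and 13.1% of all genes. DESeq2 called 0 of the 34 in both tissues, but its shares of all genes are not given here, so this is not a result about the set. Higher in male hippocampus were 4 mevalonate enzymes (Mvk, Pmvk, Mvd and Fdps), the sterol reductase Tm7sf2, the liver X receptor Nr1h2, the lipid carrier Apoe and Cyp46a1, the neuronal hydroxylase that turns cholesterol into its exported form. Lower were Ggps1, which diverts farnesyl diphosphate to the geranylgeranyl chain, and the receptor Lrp8.

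Pmvk, phosphomevalonate kinase, ran from 18.1 through a median of 23.1 to 25.2 CPM in the 7 female hippocampi and from 25.9 through 31.1 to 33.2 CPM in the 7 male ones, with no overlap (0.39 ± 0.07, adjusted p = 0.00414 by edgeR). For Mvd the females ran from 15 through 18.8 to 21.4 CPM and the males from 20.8 through 25.9 to 28.5 CPM. The ranges of Mvd touched, but each male lay above every female of its treatment (0.42 ± 0.08, adjusted p = 0.00505). Apoe, the main lipid carrier of astrocytes, ran from 605 through 705 to 925 CPM in females and from 845 through 905 to 1000 CPM in males (0.37 ± 0.07, adjusted p = 0.0065), with overlap. Cyp46a1 ran from 115 through 125 to 138 CPM in females and from 129 through 145 to 167 CPM in males (0.21 ± 0.06, adjusted p = 0.0301), also with overlap.

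Nr1h2, liver X receptor beta, ran from 25.7 through 30.0 to 38.0 CPM in female and from 35.2 through 37.2 to 39.8 CPM in male hippocampus. Its difference was 0.31 ± 0.07 (adjusted p = 0.0138). Mvk, mevalonate kinase, ran from 12.6 through 14.6 to 18.6 CPM in females and from 16.8 through 19.3 to 20.5 CPM in males (0.36 ± 0.09, adjusted p = 0.0138). Tm7sf2 ran from 6.40 through 8.45 to 8.99 CPM and from 8.16 through 10.3 to 11.7 CPM (0.32 ± 0.09, adjusted p = 0.022). The ranges of all 3 genes overlapped. Fdps, farnesyl diphosphate synthase, ran from 37.2 through 45.0 to 50.8 CPM in females and from 47.9 through 51.6 to 57.4 CPM in males, also with overlap (0.23 ± 0.06, adjusted p = 0.0205). In the other direction Lrp8 ran from 97.7 through 105 to 116 CPM in females and from 84.5 through 93.6 to 104 CPM in males (-0.18 ± 0.05, adjusted p = 0.0188), and each male lay below every female of its treatment. Ggps1 ran from 44.9 through 51.3 to 53.7 CPM in females and from 39.6 through 43.0 to 46.9 CPM in males, with overlap (-0.21 ± 0.05, adjusted p = 0.0175). All the genes that differed between the sexes are shown because they were called, so separation of their libraries is no further support.

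**Figure D3:**
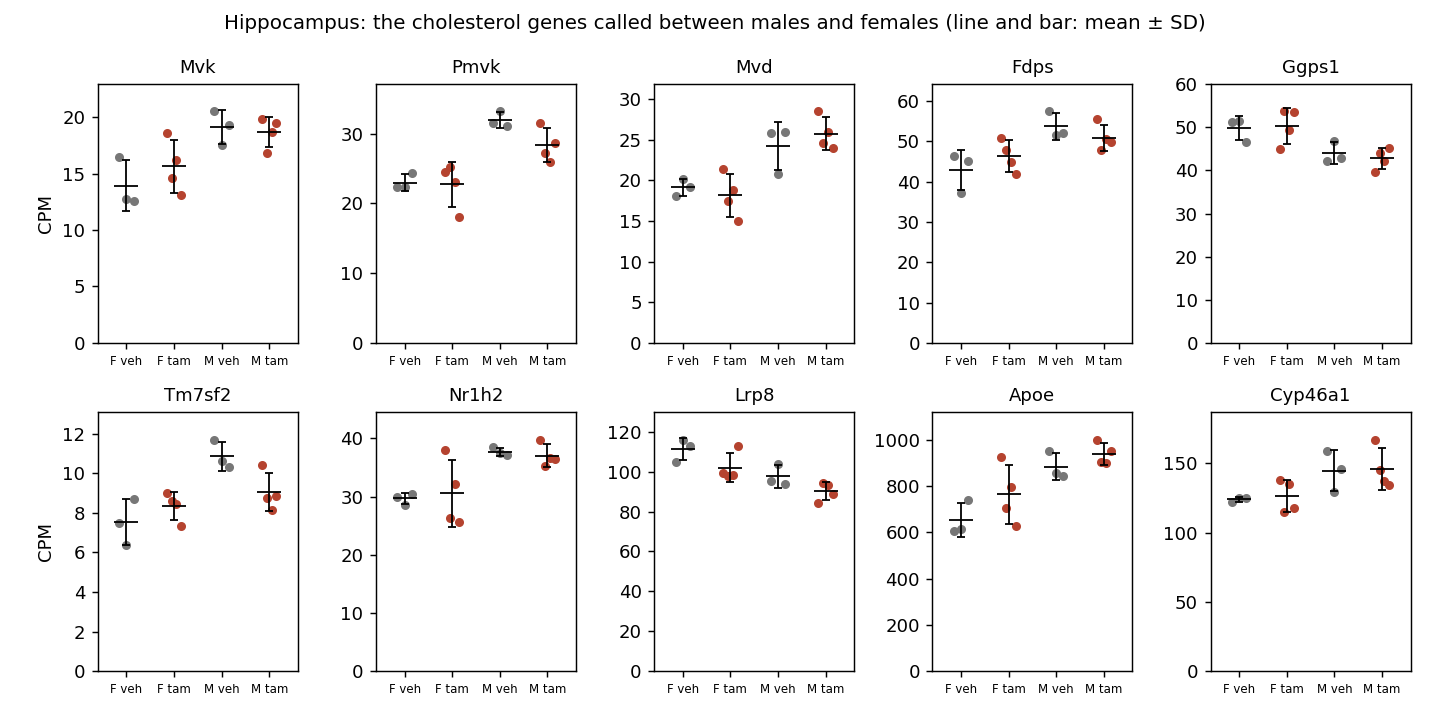
CPM in every hippocampus library of the 10 genes that differed between the sexes, by sex (F, M) and treatment (veh in grey, tam in red), with the group mean and SD as line and bar. Male libraries of Pmvk lie at 25.9 to 33.2 CPM, above all female ones at 18.1 to 25.2 CPM, while those of Lrp8 and Ggps1 have the lower median.

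The male against female contrast in the hippocampus moved with base composition across all genes. The 25% of genes lowest in GC had a median log2 difference of -0.137 and the 25% highest in GC 0.163, while the shortest 25% had 0.0910 and the longest 25% -0.0974. Of the 8 members higher in males, 6 (Apoe, Cyp46a1, Mvd, Mvk, Nr1h2 and Pmvk) belong to the 25% highest in GC, and Ggps1, lower in males, to the 25% lowest. By length, 5 of the 8 (Apoe, Cyp46a1, Mvd, Nr1h2 and Pmvk) belong to the shortest 25% and 0 to the longest 25%, where Lrp8, lower in males, belongs. The part of base composition and of length in these calls was not tested. Without the 3 Ttr-rich hippocampi 13 of 34 passed, 10 higher and 3 lower, and leaving out single libraries gave 7 to 12. The shares of 10.6% and 7.12% of all genes belong to the fit with all libraries. Those of the fits with fewer libraries are not given here, so the change in count is not a result about the set. Cyp46a1 did not pass without any 1 of animals 952, 954, 955, 957, 963 or 966 (adjusted p = 0.0575 to 0.0919), Tm7sf2 without 955, 957 or 963 (0.0501 to 0.0610) and Fdps without 957 or 963 (0.0536 and 0.0600). Of the 39 further genes of sterol and fatty acid metabolism, 3 were higher in male hippocampus, Aacs (0.28 ± 0.06), Stard3 (0.25 ± 0.06) and Pcyt2 (0.35 ± 0.06), and 2 lower, Vldlr (-0.17 ± 0.05) and Mbtps2 (-0.25 ± 0.06).

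The third comparison set the tissues side by side in vehicle animals. Levels are given per kilobase of exon, from the union of exons in the basic GENCODE annotation, so that genes can be compared (7 cortex, 6 hippocampus and 7 retina libraries, scaled together). Apoe was the highest of the 34 in each tissue, at 494 ± 32.3 (SD) CPM per kb in cortex, 432 ± 76.4 in hippocampus and 316 ± 36.1 in retina, and Hmgcs1 was next, at 111 ± 3.94, 100 ± 9.72 and 63.1 ± 3.68. Below them the tissues parted. In the cortex and hippocampus the third in order was Cyp46a1, at 94.6 ± 4.49 and 65.6 ± 6.93, and the fourth Srebf2, at 48.7 ± 0.927 and 51.0 ± 3.50. In the retina the third was Fdps, at 49.9 ± 3.45, and Cyp46a1 stood 30th, at 5.55 ± 0.788. Nr1h3 was the lowest member in each tissue, at 1.32 to 1.80 CPM per kb. The place of Fdps depended on the length used. With its longest transcript in the full annotation (2953 bases against 1453) it came to 24.6 ± 1.70 CPM per kb in the retina and stood 11th, and Insig1, at 42.3 ± 4.0, was the third. Apoe, Hmgcs1 and Nr1h3 kept their places in each tissue with those lengths, and Cyp46a1 kept the third place in cortex and hippocampus and stood 29th in the retina.

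**Figure D4:**
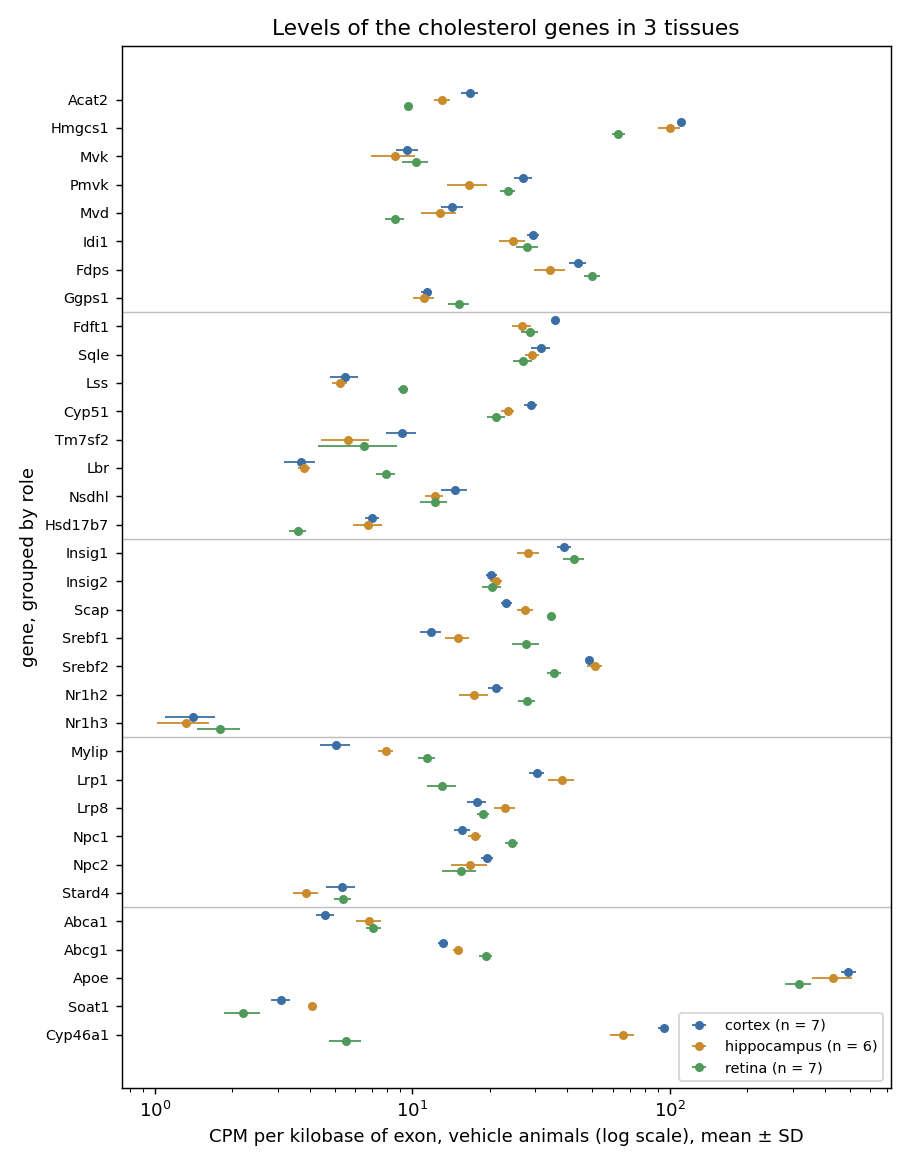
CPM per kilobase of exon (log scale) of the 34 genes in vehicle animals, mean and SD over 7 cortex, 6 hippocampus and 7 retina libraries, grouped by role. Apoe is highest in each tissue, and Cyp46a1 shows the widest gap, from 94.6 in the cortex to 5.55 in the retina.

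Neighbours in the order by exon union often lay within each other's spread. In the cortex the ranges of mean ± SD of Idi1 (29.5 ± 1.58), Cyp51 (28.8 ± 1.73) and Pmvk (27.0 ± 2.27) overlapped. In the retina so did those of Fdft1 (28.6 ± 2.23), Idi1 (28.0 ± 2.64), Nr1h2 (27.8 ± 2.17), Srebf1 (27.7 ± 3.37) and Sqle (26.9 ± 2.37). These SDs measure spread between animals, and the order of such genes within libraries was not tested. The first and second places did not overlap in any tissue.

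Between hippocampus and cortex, 9 of 34 genes were higher and 15 lower in the hippocampus, where 29.3% and 29.0% of 15598 genes were. Between retina and cortex, 11 were higher and 16 lower in the retina, where 42.1% and 41.4% of genes were. Against the hippocampus, the retina had 16 higher and 11 lower, where 43.8% and 40.7% of genes were. Without the libraries rich in Ttr or Cryaa the 3 counts came to 24, 26 and 26. Fdps (adjusted p = 0.0699 by edgeR) was lost for retina minus cortex and Idi1 (adjusted p = 0.0555) for retina minus hippocampus. The count for hippocampus minus cortex hid a change of genes. There Hmgcs1 (adjusted p = 0.0916) and Npc1 (0.055) were lost, and Mvd (0.0239) and Sqle (0.0487) were gained. With so many genes differing between tissues, these counts do not set the pathway apart, and the sizes are the more informative values. Tissue coincides with a separate deposited table and, for the hippocampus, with greater depth, and these cannot be told apart. In whole tissue, fewer cells of a type and less RNA per cell cannot be told apart either.

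The largest difference was that of Cyp46a1. It ran from 188 to 211 CPM in the 7 vehicle cortices, from 127 to 163 CPM in the 6 hippocampi and from 9.97 to 15.1 CPM in the 7 retinas, with no overlap between any of them. The retina was thus 16.9-fold below the cortex (log2 -4.08 ± 0.07, adjusted p = 5.61e-24 by edgeR) and 11.7-fold below the hippocampus (-3.55 ± 0.07, adjusted p = 6.29e-23), and the hippocampus 1.44-fold below the cortex (-0.53 ± 0.06, adjusted p = 3.35e-08).

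Among the synthesis enzymes, 9 of 16 were lower and 0 higher in hippocampus than in cortex, where 29.0% and 29.3% of all genes were. This contrast moved with transcript length across all genes, as given below, and the part of length in the enzyme count was not tested. Of the 9, Hmgcs1 was close to the threshold (-0.14 ± 0.05, adjusted p = 0.0276 by edgeR). It did not pass without the low-count filter (adjusted p = 0.166) or without the libraries rich in Ttr or Cryaa (0.0916). The largest falls were Pmvk, 1.65-fold lower (41.9 to 52.2 CPM in the cortex, 23.2 to 34.4 CPM in the hippocampus, -0.72 ± 0.06, adjusted p = 6.9e-10), and Tm7sf2, 1.63-fold lower (12.9 to 18.6 against 6.70 to 12 CPM, -0.70 ± 0.13, adjusted p = 7.67e-05), both past the threshold without overlap of their ranges. In the retina the enzymes split, with 10 of 16 lower and 4 higher than in the cortex, where 41.4% and 42.1% of all genes were. Hmgcs1 ran from 368 to 402 CPM in the cortex and from 205 to 238 CPM in the retina (1.75-fold lower, -0.81 ± 0.05, adjusted p = 1.76e-12), with Acat2 at -0.80 ± 0.06 and Mvd at -0.75 ± 0.08 alongside it. Hsd17b7, a keto-sterol reductase, ran from 31.2 to 37.9 CPM in the cortex and from 15.5 to 19.8 CPM in the retina (1.95-fold lower, -0.96 ± 0.07, adjusted p = 1.42e-11). Lss, lanosterol synthase, ran the other way, from 21.7 to 30.9 CPM in the cortex to 40.7 to 45.5 CPM in the retina (1.70-fold higher, 0.76 ± 0.06, adjusted p = 1.12e-10). In the hippocampus Lss ran from 22.3 to 26.5 CPM, and the retina was 1.75-fold above it (0.81 ± 0.06, adjusted p = 3.87e-11).

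Lbr and Tm7sf2 encode reductases for the same sterol double bond, and Lbr is also a protein of the inner nuclear membrane. Lbr ran from 10.6 to 15.2 CPM in the cortex, from 12.4 to 14.1 CPM in the hippocampus and from 24.9 to 32.6 CPM in the retina, where it was 2.15-fold above the cortex (1.11 ± 0.08, adjusted p = 1.57e-11) and 2.09-fold above the hippocampus (1.06 ± 0.08, adjusted p = 2.82e-11). The ratio of Lbr to Tm7sf2 per kilobase within a library had a median of 0.392 in the cortex (0.353 to 0.546), 0.644 in the hippocampus (0.544 to 1.02) and 1.30 in the retina (0.819 to 1.54). Tm7sf2 shares exon sequence with Vps51 on the same strand in the GENCODE annotation, so its counts are uncertain. With longest transcripts in place of exon unions the median ratios were 0.713, 1.17 and 2.37, in the same order of tissues. Also uncertain are the counts of Fdps, which shares sequence with Gm43738 in the same way. Overlaps on the same strand with genes that do not code for protein were found for Lbr (Gm26004), Nr1h3 (Gm13783) and Srebf1 (Mir6922).

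The sensing genes shifted in opposite directions between the paired transcription factors. Srebf1, whose product also drives fatty acid synthesis, ran from 46.3 to 58.7 CPM in the cortex, 56.1 to 77.1 CPM in the hippocampus and 103 to 140 CPM in the retina, 2.34-fold above the cortex there (1.23 ± 0.08, adjusted p = 4.3e-13) and 1.84-fold above the hippocampus (0.88 ± 0.08, adjusted p = 2.22e-10). Srebf2, the main driver of sterol synthesis, fell from 240 to 254 CPM in the cortex to 158 to 194 CPM in the retina (-0.46 ± 0.04, adjusted p = 3.86e-10) and did not pass between hippocampus and cortex (0.06 ± 0.04). Per kilobase the median ratio of Srebf1 to Srebf2 was 0.234 in cortex, 0.293 in hippocampus and 0.768 in retina, and the lowest retinal library, at 0.675, lay above the highest of the other tissues, at 0.320. Srebf1 overlaps Rai1 on the opposite strand, as Cyp51, Fdft1, Ggps1, Lbr and Npc1 overlap other protein-coding genes, and the use of strand in counting is not known.

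Scap was higher in the retina than in the cortex (0.59 ± 0.04) and Nr1h2 likewise (0.41 ± 0.05), while Insig2 did not pass in any pair, at 0.06 ± 0.06 for hippocampus minus cortex, 0.00 ± 0.06 for retina minus cortex and -0.06 ± 0.06 for retina minus hippocampus. Insig1 was lower in the hippocampus than in the cortex (-0.47 ± 0.07, adjusted p = 2.83e-06). For retina minus cortex it was at 0.12 ± 0.07 (adjusted p = 0.0838), and it passed there with the animal as a block (adjusted p = 0.0308).

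For uptake, Lrp1, a large endocytic receptor for Apoe-bearing particles, ran from 465 to 542 CPM in the cortex, 521 to 703 CPM in the hippocampus and 170 to 251 CPM in the retina. The retina was 2.32-fold below the cortex (-1.21 ± 0.08, adjusted p = 7.75e-13) and 2.92-fold below the hippocampus (-1.54 ± 0.08, adjusted p = 1.2e-14). Mylip, the ubiquitin ligase that marks lipoprotein receptors for degradation, rose in the order cortex (14.6 to 19.7 CPM), hippocampus (23.1 to 27.9 CPM) and retina (33.8 to 41.0 CPM), with no overlap and each step past the threshold (0.66 ± 0.07 and 0.54 ± 0.07, adjusted p = 8.35e-08 and 3.42e-07). The retina was 2.29-fold above the cortex (1.20 ± 0.07, adjusted p = 4.5e-13). Npc1, which moves cholesterol out of lysosomes, was 1.55-fold higher in the retina than in the cortex (0.64 ± 0.05), and its partner Npc2 was lower (-0.35 ± 0.09).

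Of the exporters, Abca1 was higher in both hippocampus (0.57 ± 0.06, adjusted p = 6.65e-08) and retina (0.63 ± 0.06, adjusted p = 2.91e-09) than in the cortex, at 57.3 to 81.1 and 65.5 to 78.1 CPM against 42.2 to 50.9 CPM. Abcg1 followed at 0.18 ± 0.04 and 0.56 ± 0.04. Apoe was lower in the retina than in the cortex (-0.65 ± 0.06, adjusted p = 1.19e-09), from 816 to 1010 CPM down to 491 to 677 CPM. Soat1 was highest in the hippocampus, at 32.1 to 35.7 CPM against 23.7 to 30.3 CPM in the cortex (0.39 ± 0.07, adjusted p = 6.4e-05) and 15.9 to 24.5 CPM in the retina (retina minus hippocampus -0.90 ± 0.07, adjusted p = 9.29e-11).

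**Figure D5:**
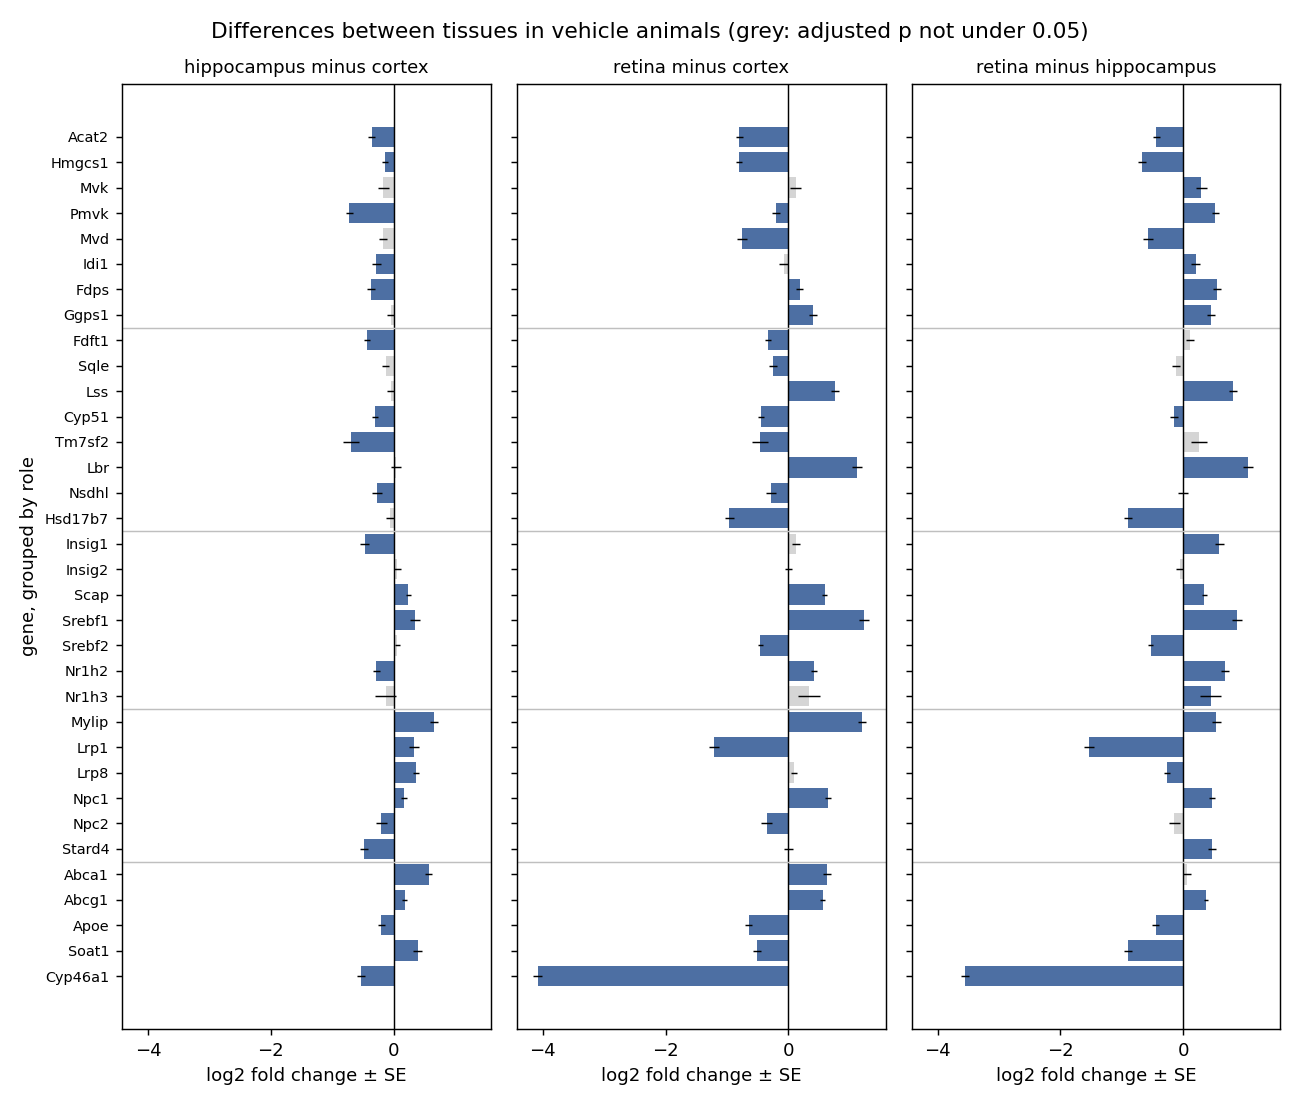
Log2 fold change between tissues in vehicle animals for each of the 34 genes as bars, with black lines of 1 SE and the roles set apart; grey bars did not pass an adjusted p of 0.05. The bar of Cyp46a1 reaches -4.08 for retina minus cortex, while Insig2 is grey in each panel.

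Cell make-up moved with these tissue differences. The sum of 10 oligodendrocyte markers was 4940 to 6520 CPM in the cortex, 3350 to 4450 CPM in the hippocampus and 79.2 to 96.0 CPM in the retina, where Mog, a myelin protein, was at most 0.590 CPM. The sum of 8 astrocyte markers was 4390 to 5200, 4450 to 5900 and 873 to 1030 CPM, although Aqp4, 1 of the 8, was 119 to 177, 166 to 233 and 165 to 198 CPM. The sum of 7 markers of Müller glia, a list that holds Apoe itself, was highest in the retina, at 3770 to 4510, 3100 to 3740 and 4880 to 6200 CPM, and that of 8 neuronal markers 7400 to 8690, 5990 to 6740 and 4800 to 5590 CPM. The hippocampus minus cortex contrast moved with transcript length, with medians of -0.200 in the shortest 25% of genes and 0.211 in the longest 25%. Among the synthesis enzymes only Lss, not called in this contrast, belongs to the longest 25%. Pmvk and Nsdhl, lower in the hippocampus, and Mvd, not called, belong to the shortest 25%. Abca1, Abcg1, Lrp1, Lrp8, Npc1 and Soat1, higher in the hippocampus, belong to the longest 25%, as does Stard4, which was lower. Retina minus cortex moved with GC, at 0.191 in the 25% lowest in GC and -0.195 in the 25% highest. The part of cell make-up, length and GC in these results was not tested.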

How the data were processed

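RNA from cortex, hippocampus and retina was sequenced from TruSeq libraries, per the labels' protocols. The authors deposited 1 table of estimated counts per gene and tissue, on a RefSeq annotation, per the file headers. GRCm38, mm10 and DESeq are named in the submitters' processing notes. The aligner, the counter and whether strand was used: not given in the sources used here. Counts were rounded (23.4% of nonzero cortex values were whole to within 0.001). A cortex library of 4567 counts (male tamoxifen, animal 962) was left out, and hippocampus 965 was not analysed here.

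Genes kept by filterByExpr (minimum count 10) were scaled by TMM and fitted with edgeR 4.0.16 (R 4.3.3) quasi-likelihood models with 1 mean per group of sex and treatment, Benjamini-Hochberg adjustment over all genes tested and a threshold of 0.05. The SE is the absolute log2 fold change over the square root of F. CPM uses TMM-adjusted totals within a tissue, or over the vehicle libraries of all tissues for tissue comparisons. Exon lengths are unions over the basic GENCODE M21 annotation (GRCm38), transcript length and GC those of the longest transcript in its full annotation, retained introns included, and promoters from RefSeq (GRCm38.p6). The fits were tested on simulated data. Alternatives were DESeq2 1.42.0, other size factors, no filter, an animal block, and fits without single libraries or those rich in foreign transcripts.

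The genes and lists were chosen with earlier results of these data known. Values are given in full for genes called for tamoxifen or sex, for the 3 smallest p per tissue, and for the 3 largest called rises and falls per tissue pair. Separation of the libraries of genes chosen in these ways follows in part from the choice. Others are named for their role, and a gene outside the set that passed in the cortex is not reported here. Libraries of a group come from differently numbered animals, and chi-square per gene between them was at least 3.05. Same-numbered libraries of different tissues come from a shared animal, going by their titles. Their deviations from group means correlated at -0.179 to 0.263 between cortex and hippocampus, -0.059 to 0.144 between cortex and retina and -0.117 to 0.058 between hippocampus and retina.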

Additional observations from a re-analysis of the deposited data

Results flagged for a closer look

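In 10 of 154 groups of 4 libraries, 1 library lay far from the other 3 of its group by Dixon's test, where chance alone flags about 5% of groups. Tm7sf2 stood out in both cortex and retina of animal 953 (female, tamoxifen), at 22.2 CPM in the retina against 11.1 to 11.7 CPM in the others and at 18 CPM in the cortex against 16.5 CPM. The retina of vehicle female 955 was also high in Tm7sf2, at 20.2 CPM. In the same animal 953, hippocampal Lbr was 11.3 CPM against 12.6 to 12.7 CPM, and hippocampal Sqle 75.1 CPM against 79.9 to 80.8 CPM. Hippocampal Lrp8 was 113 CPM in female tamoxifen animal 954 against 97.7 to 99.4 CPM, and cortical Ggps1 44.5 CPM in female tamoxifen animal 951 against 47.5 to 47.8 CPM. Among male tamoxifen retinas, Apoe was 484 CPM in animal 959 against 654 to 681 CPM, and Srebf1 was 159 CPM in animal 961 against 134 to 135 CPM. Retina 959 is 1 of the Cryaa-rich libraries and 961 1 of the Rpe65-rich ones, and their part in these values was not tested. Among male vehicle retinas, Mylip was 42.2 CPM in animal 964 against 37.0 to 37.9 CPM, and Nr1h3 was 4.37 CPM in animal 966 against 3.40 to 3.54 CPM.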

How the results depend on the processing

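The count of genes of the set called for tamoxifen in the cortex was 1, and 0 without the Ttr-rich libraries, and leaving out single libraries gave 0 to 1. In the retina it was 0, and 1 without the Rpe65-rich libraries, an alternative chosen after seeing the data, and leaving out single libraries gave 0 to 1. When an absolute log2 fold change above 1 was also required, 0, 5 and 3 genes of the set differed for hippocampus minus cortex, retina minus cortex and retina minus hippocampus. The share of all genes past that cut-off is not given here, so these counts do not set the pathway apart. With the animal as a replicate block the 3 tissue counts were 24, 28 and 27, against 24, 27 and 27 without it. The shares of all genes called with the block are not given here, so these counts do not set the pathway apart either. The block left the count for a tamoxifen effect that differed between tissues at 0, and changed no call of the set other than that of Insig1 for retina minus cortex. Within a tissue no paired analysis was possible because each animal had 1 treatment.

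Of 840 values of named genes under alternatives, 822 kept their direction and side of the threshold, 16 lost the call, 2 gained it and 0 reversed. For the tissue pairs these values cover only the 3 largest called rises and falls, which lie far from the threshold. Smaller tissue differences outside them also changed side. Hmgcs1 for hippocampus minus cortex (adjusted p = 0.0276 by edgeR) was lost without any 1 of many libraries (0.0574 to 0.265). These were cortex 955, 957, 963, 964, 965 and 966 and hippocampus 955, 958, 963 and 964. Npc2 for the same pair (adjusted p = 0.0453 by edgeR) did not pass by DESeq2 (0.0531) or, by edgeR, without the low-count filter (0.129). It was also lost in several fits that left out 1 library. Counts over all genes depended more on the settings. For tamoxifen in the cortex they were 89 in the main analysis, 176 by DESeq2 and 33 without the Ttr-rich libraries. In the hippocampus they were 10, 63 by DESeq2 and 0 without the Ttr-rich libraries, and in the retina 7, 59 by DESeq2 and 15 without the low-count filter; the cause was not tested. Depth limits Nr1h3 most, since it had the fewest counts of the set. With longest transcripts in place of exon unions, an alternative also chosen after seeing the data, Fdps went from 5th to 13th in the cortex, 6th to 16th in the hippocampus and 3rd to 11th in the retina.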
